A study of Bos taurus with 19 samples.

Results

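Glycolysis, the splitting of glucose to pyruvate, was followed in the bovine theca interna through 10 genes, namely the glucose transporter SLC2A1, the enzymes HK1, PFKP, ALDOA, GAPDH, PGK1, PGAM1, ENO1 and PKM, and LDHA, which turns pyruvate into lactate. The genes were taken as every probe set of the array whose only annotated symbol was 1 of these names, which gave 14 of the 24127 probe sets on the array. LDHA had 3 probe sets, GAPDH had 1 plus a pair of array control probe sets that were left out of the tests, and each other gene had 1, so that 12 probe sets were tested. The theca interna is the vascularised, steroid-producing layer outside the follicle's basal lamina.

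RNA from the theca interna of 19 single follicles was measured on a single-colour Affymetrix bovine array, and the values are log2 signals given to 1 decimal. The follicles came from slaughtered Bos taurus heifers that were not pregnant, and the granulosa cells inside the basal lamina had been scraped away before the theca was dissected. The groups were small atretic follicles (n = 5), large healthy follicles (n = 4), and small healthy follicles whose basal granulosa cells were rounded (n = 5) or columnar (n = 5). Small follicles measured 3 to 5 mm across and large follicles more than 9 mm. Atretic follicles are those that have begun to degenerate. No group carried a transgene or received a treatment. Per the labels, RNA was purified with RNAqueous Micro kit columns for the small atretic follicles, with Trizol followed by RNeasy columns for the large ones and with RNeasy mini columns for the small healthy ones, and 250 ng was labelled for the small atretic follicles against 2 to 5 µg for the other groups. The study's methods instead describe Trizol followed by RNeasy columns, and a single labelled amount, for thecal samples without naming groups, so it is not settled whether the small healthy and large follicles were prepared alike. If the labels hold, RNA preparation and follicle group cannot be told apart in either comparison with small healthy follicles. The same is true of small atretic against large follicles. Whether the follicles came from 19 different animals is not stated, and the p-values describe no more than the spread between these arrays, whose number limits the precision.

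In glycolysis, glucose enters the cell through facilitative transporters and is trapped by phosphorylation by a hexokinase. Phosphofructokinase commits it to the pathway, aldolase splits the sugar, and the enzymes from GAPDH to pyruvate kinase recover ATP. The ovarian follicle is known for a high use of glucose, with lactate released by lactate dehydrogenase.

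The labelled tissue was checked against lists of markers. Of the theca steroidogenic genes, INSL3, a peptide hormone of theca cells, lay between 10 and 12.5 on all arrays, whereas CYP17A1, the enzyme of androgen synthesis, ran from 3.0 to 9.2, with its lowest value in a small atretic follicle, and LHCGR, the LH receptor, from 2.1 to 4.7. CYP11A1, HSD3B1, STAR, SCARB1 and NR5A1 lay between 6.2 and 10.8. The granulosa list was mixed. FSHR, the FSH receptor, stayed between 1.4 and 2.9 and FOXL2 between 2.3 and 3.0, and CYP19A1, the aromatase, reached 5.8 in 1 large follicle. INHA (7.8 to 10.8), FST (7.2 to 10.2), SERPINE2 (9.0 to 10.6) and INHBA (5.3 to 10.3) had higher signals, with GATM, HSD17B1 and AMH between 3.6 and 8.6 and NR5A2 at 2.3 to 4.3. Large replicate 2, the array with the highest CYP19A1, also had the highest INHBA signal (10.3) and the highest granulosa list mean (7.01). The study excluded 1 large thecal sample as contaminated by granulosa cells, for high CYP19A1, FSHR, INHBA and FST. The part of granulosa cell RNA in the results was not tested. The median signal was 3.8 or 3.9 on every array. Added poly-A control RNAs gave a mean signal of 5.39 ± 0.25 on large follicle arrays and 4.23 ± 0.20 on small healthy arrays (SD, n = 4 and 10, exact permutation test, two-sided, p = 0.000999, the smallest it can give). The 3′ minus 5′ signal of the GAPDH control probe sets, a sign of RNA length, was 0.46 ± 0.09 in small atretic and 0.45 ± 0.08 in small healthy follicles (SD, n = 5 and 10, exact permutation p = 1) and 0.50 ± 0.08 in large follicles (n = 4, exact permutation p = 0.496 against small healthy).

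The first comparison set the theca of small atretic follicles against that of small healthy follicles of the same diameter. PGK1, HK1, ENO1, PGAM1, ALDOA, GAPDH and PKM fell in atretic follicles, by 1.21-fold to 1.67-fold, and 1 LDHA probe set rose by 1.31-fold. Tests were made with limma and p-values were adjusted by Benjamini-Hochberg over the 15470 probe sets tested. An adjusted p under 0.05 was reached by 8 of the 12 glycolytic probe sets, against 31.9% of all probe sets tested, and 7 of the 12 were lower, against 15.1% of all. None changed 2-fold or more, against 3.61% of all that passed with at least that change. The median log2 difference was -0.40 over the 12 probe sets, 11 of which were lower in atretic follicles, and 0.01 over all probe sets, of which 49.0% were lower. In none of the 12 did the atretic and small healthy arrays separate without overlap, against 3.09% of all probe sets.

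PGK1, phosphoglycerate kinase, makes the first ATP of the payoff stage. Its log2 signal was 8.8, 8.5, 9.1, 9.1 and 8.6 in small atretic follicles, against a lowest of 9.1, a median of 9.65 and a highest of 10 in small healthy follicles. All 5 atretic arrays lay below the small healthy median and 3 lay below the lowest small healthy array, while the other two equalled it. The log2 difference was -0.74 ± 0.16 (SE, limma adjusted p = 0.00581), or 1.67-fold lower. HK1, the hexokinase that phosphorylates glucose on entry, read 7.6, 7.6, 7.7, 7.9 and 7.9 in small atretic follicles, against 7.9, 8.25 and 8.3 as lowest, median and highest of the small healthy ones. The atretic arrays filled the lower end and met the small healthy ones only at 7.9. The difference was -0.42 ± 0.09 (SE, limma adjusted p = 0.00610).

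ENO1, enolase, which forms phosphoenolpyruvate, had signals of 9.4, 9.2, 9.7, 9.5 and 9.2 in small atretic follicles, against 9.5, 9.95 and 10.2 as lowest, median and highest of the small healthy follicles. The log2 difference was -0.51 ± 0.12 (SE, limma adjusted p = 0.00860), with 3 of the 5 atretic arrays below every small healthy array. PGAM1, phosphoglycerate mutase, read 8.2, 7.9, 8.2, 8.5 and 7.7 in small atretic follicles, against 8.2, 8.85 and 9.5 in small healthy follicles, given in the same way. The groups overlapped between 8.2 and 8.5, and the difference was -0.66 ± 0.20 (SE, limma adjusted p = 0.0199). ALDOA, the aldolase that cleaves fructose 1,6-bisphosphate, read 8.4, 8.2, 8.9, 8.6 and 8.4 in small atretic follicles, against 8.5, 8.9 and 9.2 in small healthy follicles. Atretic replicate 3 reached the small healthy median and the other 4 stayed under it, with a difference of -0.37 ± 0.12 (SE, limma adjusted p = 0.0329).

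GAPDH, which oxidises glyceraldehyde 3-phosphate and is often taken as a reference gene, read 10.5, 10.2, 10.6, 10.8 and 10.5 in small atretic follicles, against 10.6, 10.85 and 11.0 in small healthy follicles. Its difference of -0.28 ± 0.10 (SE, limma adjusted p = 0.0386) was the smallest of those that passed. The control probe sets for GAPDH, which were not tested, averaged 10.92 ± 0.30 at the 3′ end in small atretic and 11.16 ± 0.16 in small healthy follicles, and 10.46 ± 0.25 at the 5′ end in small atretic and 10.71 ± 0.15 in small healthy follicles (SD, n = 5 and 10). PKM, the pyruvate kinase of most tissues outside the liver, read 4.4, 4.4, 4.7, 5.5 and 4.3 in small atretic follicles, against 4.6, 5.6 and 5.9 in small healthy follicles. Atretic replicate 4 stood apart from the other 4 and lay among the healthy values. The difference was -0.70 ± 0.25 (SE, limma adjusted p = 0.0440).

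SLC2A1, the GLUT1 transporter that brings glucose into most cells, did not pass. It read 5.8, 5.8, 5.7, 5.1 and 5.2 in small atretic follicles, against 5.4, 5.85 and 6.1 in small healthy follicles, with a difference of -0.32 ± 0.14 (SE, limma adjusted p = 0.0898) and a 95% interval from -0.62 to -0.02. Atretic replicates 4 and 5 lay below all small healthy arrays and the other 3 lay inside their range. PFKP, the platelet form of phosphofructokinase, read 5.0, 4.9, 5.4, 5.3 and 5.4 in small atretic follicles, against 4.9, 5.45 and 5.9 in small healthy follicles. All atretic values lay within the healthy range, and the difference of -0.24 ± 0.15 did not pass (SE, limma adjusted p = 0.216, 95% interval -0.55 to 0.07).

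The 3 probe sets of LDHA did not move together. The probe set with the brightest signal, Bt.3809.1.S1_at, read 8.0, 7.2, 7.6, 8.3 and 8.3 in small atretic follicles, against 7.7, 8.55 and 9.6 in small healthy follicles. All atretic values lay below the small healthy median, but the difference of -0.64 ± 0.30 did not pass (SE, limma adjusted p = 0.103, 95% interval -1.26 to -0.02). Probe set Bt.25555.1.S1_at read 6.8, 6.7, 6.8, 6.8 and 6.5 in small atretic follicles, against 6.0, 6.35 and 6.7 in small healthy follicles, and rose by 0.39 ± 0.12 (SE, limma adjusted p = 0.0193). Probe set Bt.13881.1.S1_at differed by -0.02 ± 0.11 (SE, limma adjusted p = 0.90), with means of 8.08 ± 0.23 in small atretic and 8.10 ± 0.18 in small healthy follicles (SD, n = 5 and 10). No direction can be given for LDHA as a gene.

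**Figure D1:**
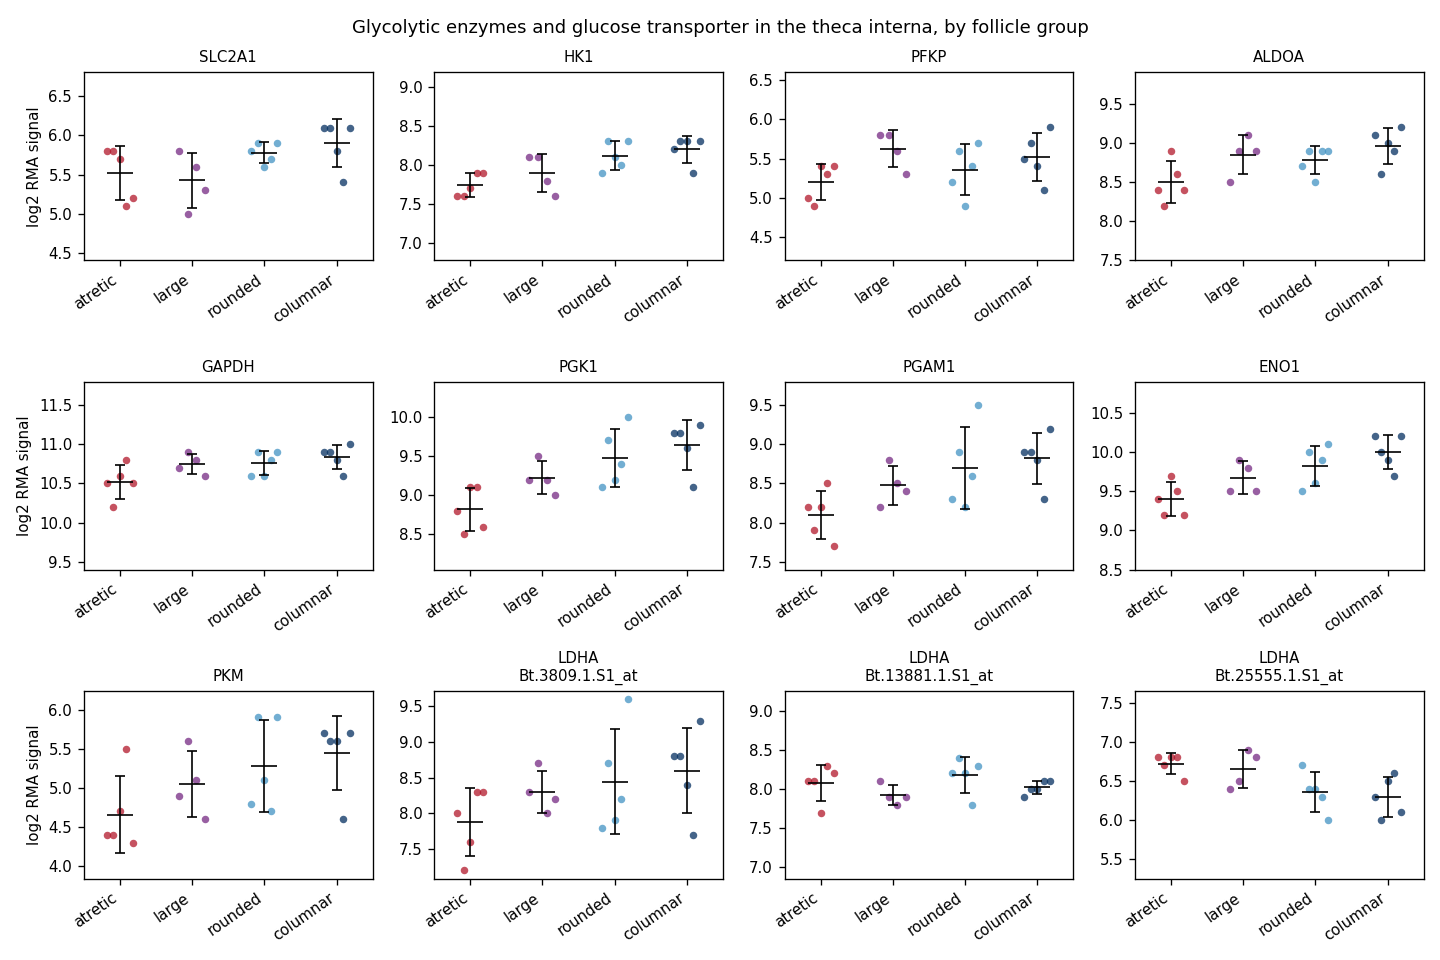
Log2 RMA signal of the 12 tested probe sets (vertical axes, each on its own scale) in small atretic, large healthy, small healthy rounded and small healthy columnar follicles, with 1 point per follicle and bars for the mean and SD (n = 5, 4, 5 and 5). The atretic mean is the lowest of the 4 for PGK1, HK1 and ENO1, while the 3 LDHA panels run in different directions.

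These calls depended on the arrays included. With each array left out in turn, 4 to 9 of the 12 probe sets passed, and the count was 5 when atretic replicate 1, atretic replicate 2, columnar replicate 1 or columnar replicate 5 was left out and 4 when atretic replicate 5 was. Against the 5 rounded follicles alone none passed, although PGK1 still differed by -0.66 (limma, adjusted p = 0.0764) and HK1 by -0.38 (adjusted p = 0.0807). PGK1, HK1 and ENO1 passed under the other 25 of 26 alternatives, whereas GAPDH and PKM lost the call in 14 of 26 each and ALDOA in 6 of 26. Against the 5 columnar follicles alone, only GAPDH lost its call (-0.32, limma adjusted p = 0.0590). For the fits with fewer arrays, the share of all probe sets that passed at any fold was not counted.

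Cell type markers and RNA measures were read in the same comparison, in which 15.1% of all probe sets were lower and 16.9% higher. All 10 immune markers tested were higher in small atretic follicles, and the list averaged between 4.61 and 5.85 per array there, against 3.54 to 4.59 in small healthy follicles. CD68, a macrophage marker, was higher by 2.70 ± 0.46 on the log2 scale (SE, limma adjusted p = 0.00187). The mean of 8 theca steroidogenic genes ran from 6.63 to 8.86 in small atretic and from 7.76 to 9.11 in small healthy follicles, and 1 of the 8 passed, CYP11A1, the first enzyme of steroid synthesis (-1.31 ± 0.28 (SE), limma adjusted p = 0.00529). Of 9 smooth muscle and pericyte genes 4 were higher, of 7 fibroblast genes 2 were higher, of 7 granulosa genes 2 were lower and 1 higher, and of 8 endothelial genes 1 was lower and 1 higher, while no erythroid gene had enough signal to be tested. The endothelial and steroidogenic counts lay near the shares over all probe sets. The 3′ minus 5′ signal of the cyclophilin control was 2.06 ± 0.15 in small atretic and 1.86 ± 0.15 in small healthy follicles (SD, n = 5 and 10, exact permutation test, two-sided, p = 0.0383). By the same test p was 0.453 for the actin control and 0.159 for the poly-A controls. Hybridization controls averaged 7.85 ± 0.15 in small atretic and 7.66 ± 0.13 in small healthy follicles (SD, exact permutation test, p = 0.026). The part of these shifts in the glycolytic values was not tested. In such bulk tissue, fewer cells of a type and less RNA per cell cannot be told apart.

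Genes around the pathway were read from lists, with 1 probe set for each gene, against the background of 15.1% lower and 16.9% higher over all probe sets in this comparison. Of 9 other glycolytic isoenzymes and steps tested, 3 fell in small atretic follicles and none rose. TPI1, triose phosphate isomerase, fell by 0.53 on the log2 scale (SE 0.17, limma adjusted p = 0.0315), GPI, glucose 6-phosphate isomerase, by 0.32 (SE 0.11, adjusted p = 0.0399), and PKLR, the liver and red cell pyruvate kinase, by 0.29 (SE 0.07, adjusted p = 0.00671), the last at signals that averaged 3.22 in small atretic and 3.51 in small healthy follicles. Of 6 pentose phosphate genes 3 fell, among them the transketolase TKT (-0.55, adjusted p = 0.0250) and PGD, which makes NADPH (-0.52, adjusted p = 0.00831). SLC2A8 was the 1 of 2 other hexose transporters that fell (-0.37, limma adjusted p = 0.0232).

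Genes that control entry into and exit from glycolysis changed in both directions. PFKFB3 makes fructose 2,6-bisphosphate, the activator of phosphofructokinase, and PFKFB2 is a related bifunctional enzyme. Both rose in small atretic follicles, the 2 of that list that could be tested. PFKFB3 read 4.6, 3.2, 3.5, 4.4 and 4.6 in small atretic follicles, against a mean of 3.32 ± 0.33 in small healthy follicles (SD, n = 10), a difference of 0.74 ± 0.23 (SE, limma adjusted p = 0.0242) with atretic replicates 1, 4 and 5 the highest. PFKFB2 differed by 0.59 ± 0.16 (SE, limma adjusted p = 0.0127). PDK4, the kinase that shuts the pyruvate dehydrogenase complex, read 8.8, 8.1, 7.7, 7.8 and 9.1 in small atretic follicles, against a mean of 7.13 ± 0.35 in small healthy follicles (SD, n = 10). All atretic arrays were at or above the highest small healthy array, and PDK4 rose by 1.17 ± 0.23 on the log2 scale (SE, limma adjusted p = 0.00300). Of the 9 genes of that complex and its kinases, 3 fell, the subunits DLAT (-0.52, adjusted p = 0.0418), DLD (-0.36, adjusted p = 0.0186) and PDHX (-0.26, adjusted p = 0.0439).

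SLC16A1, the monocarboxylate transporter MCT1 that carries lactate and pyruvate across the membrane, was the 1 of 5 such genes that passed. It read 4.5, 4.9, 4.4, 4.5 and 3.6 in small atretic follicles, against a mean of 5.55 ± 0.66 in small healthy follicles (SD, n = 10). Atretic values overlapped the lower healthy ones, and the difference was -1.17 ± 0.30 (SE, limma adjusted p = 0.0111). Among 9 genes of glycogen handling and gluconeogenesis, PCK2, the mitochondrial phosphoenolpyruvate carboxykinase, fell by 0.66 on the log2 scale (SE 0.11, limma adjusted p = 0.00157) and G6PC3 by 0.40 (adjusted p = 0.00965), while GBE1, the glycogen branching enzyme, rose by 0.45 (adjusted p = 0.0402).

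Several glycolytic genes are known targets of the hypoxia-inducible factors, so a list of 15 tested hypoxia response genes was read beside them. It was split, with 7 higher and 3 lower in small atretic follicles. VEGFA, the angiogenic growth factor, read 5.5, 5.7, 6.6, 6.1 and 5.1 in small atretic follicles, against a mean of 7.24 ± 0.46 in small healthy ones (SD, n = 10), and fell by 1.44 on the log2 scale (SE 0.25, limma adjusted p = 0.00192). NDRG1, a stress-responsive gene, read 6.9, 6.5, 6.3, 6.7 and 7.0 in small atretic follicles, against 5.53 ± 0.32 in small healthy ones (SD, n = 10), and rose by 1.15 ± 0.16 (SE, limma adjusted p = 0.00135). All 5 atretic arrays lay above every small healthy array for NDRG1. HMOX1, haem oxygenase, rose by 1.27 ± 0.25 (SE, adjusted p = 0.00352) and BNIP3, a mitophagy receptor, by 0.46 ± 0.10 (SE, adjusted p = 0.00610).

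**Figure D2:**
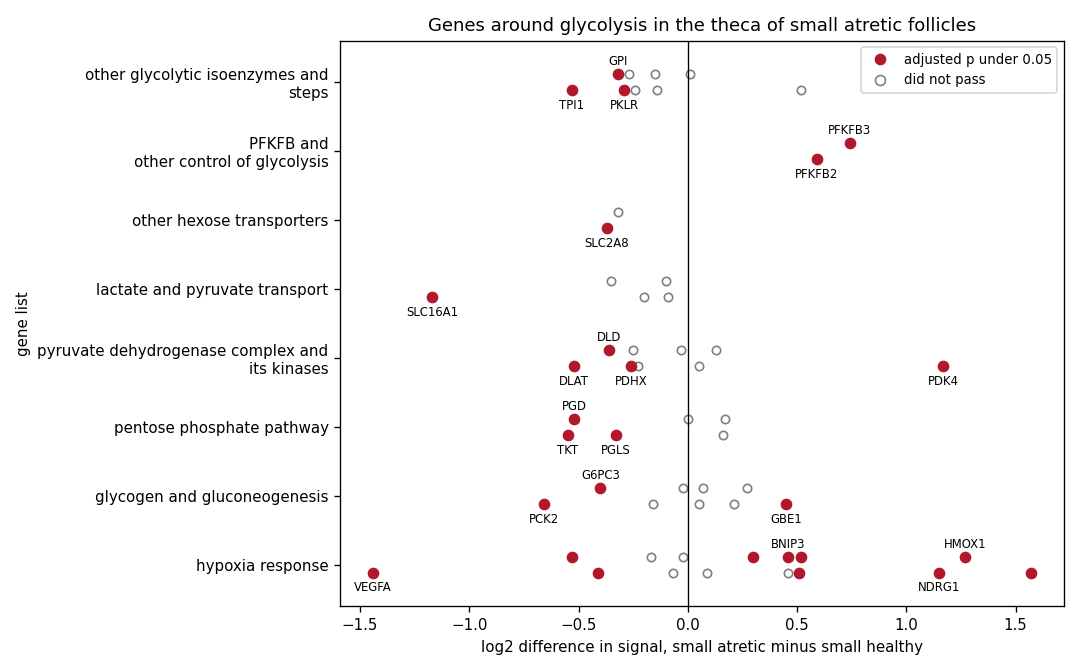
Log2 difference in signal between small atretic and small healthy follicles (horizontal axis) for each tested gene of 8 lists around glycolysis (rows), with filled points for an adjusted p under 0.05 and open points for the rest. PDK4, PFKFB2 and PFKFB3 lie to the right and SLC16A1 and VEGFA to the left, at 1.17, 0.59, 0.74, -1.17 and -1.44.

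The second comparison set large healthy follicles against the same 10 small healthy arrays. Because both comparisons share these arrays, their differences are given side by side and were not compared by test. None of the 12 glycolytic probe sets passed, against 3.58% of the 15570 probe sets tested, and none passed with a 2-fold change, against 0.706%. At an unadjusted p under 0.05 there were 3 of the 12, against 24.4% of all. The median log2 difference was -0.23, with 10 of the 12 lower in large follicles, and -0.01 over all probe sets. The 95% intervals of all 12 excluded a 2-fold change, so that smaller differences remain possible.

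SLC2A1 gave the difference with the smallest p. It read 5.8, 5.0, 5.6 and 5.3 in large follicles, against 5.4, 5.85 and 6.1 as lowest, median and highest of the small healthy follicles. All 4 large arrays lay below the small healthy median and 2 below the lowest small healthy array, with a difference of -0.42 ± 0.15 (SE, limma adjusted p = 0.121, 95% interval -0.74 to -0.10). HK1 read 8.1, 8.1, 7.8 and 7.6 in large follicles and differed by -0.26 ± 0.12 (SE, limma adjusted p = 0.183), and PGK1 read 9.2, 9.5, 9.2 and 9.0 and differed by -0.34 ± 0.17 (SE, adjusted p = 0.242). PFKP, with 5.8, 5.8, 5.6 and 5.3 in large follicles, and the LDHA probe set Bt.25555.1.S1_at, with 6.4, 6.5, 6.9 and 6.8, had positive differences of 0.18 ± 0.16 (SE, adjusted p = 0.494) and 0.32 ± 0.14 (SE, adjusted p = 0.174). The other 7 probe sets differed by -0.31 to -0.02. Among the 58 genes tested in the lists around the pathway, 2 passed (3.45%, close to the 3.58% of all probe sets), PCK2 (-0.60, limma adjusted p = 0.0156) and VEGFA (-1.24, limma adjusted p = 0.0441), both lower in large follicles. Of the cell type markers in this comparison, 3 of 9 smooth muscle and pericyte genes, 2 of 7 fibroblast genes and 1 of 10 immune genes tested were higher in large follicles, of 9 granulosa genes tested 1 was higher and 1 lower, and 0 of 8 theca steroidogenic and 0 of 8 endothelial genes passed. Their part in the glycolytic values was not tested.

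**Figure D3:**
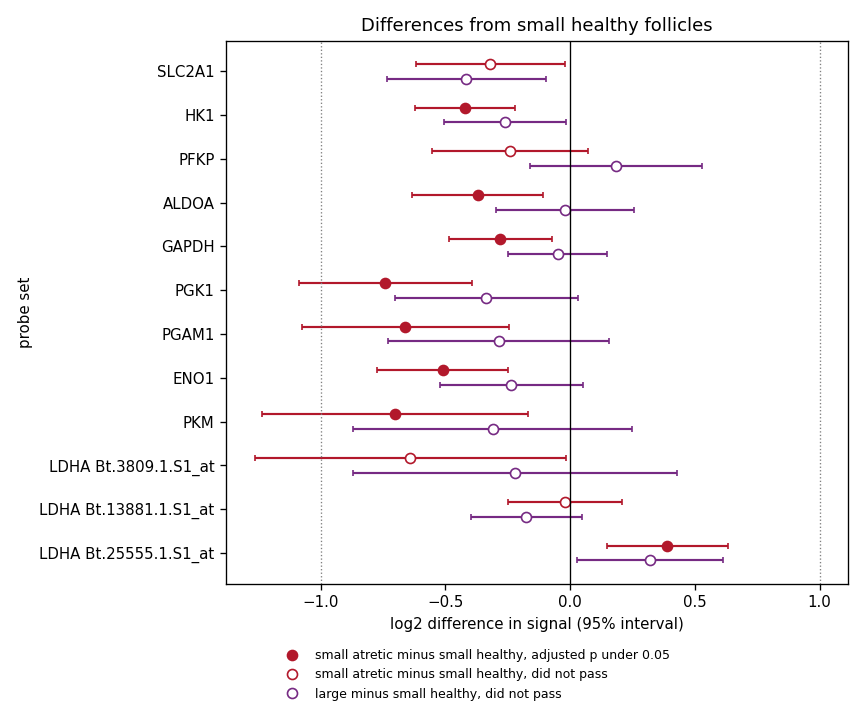
Log2 difference from small healthy follicles (horizontal axis, with 95% intervals and dotted lines at 2-fold) for the 12 tested probe sets (rows), in small atretic (red) and large healthy (purple) follicles, with filled points for an adjusted p under 0.05. All filled points are atretic, 7 to the left of 0 and 1 to the right, and no purple point is filled.

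The third comparison was between rounded and columnar small healthy follicles, which differ in the shape of their basal granulosa cells. No glycolytic probe set passed and none reached an unadjusted p under 0.05, against 0% of the 15570 probe sets tested that passed and 2.31% (360 probe sets) at an unadjusted p under 0.05. The adjusted p was 0.996 for each of the 12. LDHA Bt.3809.1.S1_at read 7.8, 8.7, 7.9, 8.2 and 9.6 in rounded follicles, against 8.8, 8.8, 8.4, 7.7 and 9.3 in columnar follicles, so the groups covered nearly the same range. Its difference of -0.16 ± 0.34 (SE) had the widest 95% interval, -0.88 to 0.56, and the intervals of all 12 excluded a 2-fold change. The largest differences in size were -0.18 ± 0.14 for both ALDOA and ENO1 (SE). ALDOA averaged 8.78 ± 0.18 in rounded and 8.96 ± 0.23 in columnar follicles and ENO1 9.82 ± 0.26 in rounded and 10 ± 0.21 in columnar follicles (SD, n = 5 each).

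Ordered by mean over the 4 groups, 7 of the 12 probe sets (HK1, GAPDH, PGK1, PGAM1, ENO1, PKM and LDHA Bt.3809.1.S1_at) ran from columnar through rounded and large to atretic, and the atretic mean was the lowest for 9 of the 12. The share of all probe sets with this order was not counted. These 7 also varied together among small healthy follicles, as given below, so they are not separate observations. None of the tests between neighbours in this order (rounded against columnar, large against the pooled small healthy, atretic against large) passed. The last, a fit of small atretic against large healthy follicles added after the values were seen, gave no glycolytic probe set with an adjusted p under 0.05, against 0% of 15326 probe sets. At an unadjusted p under 0.05 there were 2 of the 12 (PFKP and PGK1), against 18% of all. PGK1 differed there by -0.41 ± 0.16 between atretic and large follicles (SE, limma adjusted p = 0.231) and PFKP by -0.42 ± 0.15 (SE, limma adjusted p = 0.201). By the labels these follicles also differed in RNA preparation. Added poly-A controls averaged 4.41 ± 0.27 in small atretic and 5.39 ± 0.25 in large follicles (SD, exact permutation test, p = 0.00794, the smallest it can give).

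Among the 10 small healthy follicles the genes varied together from follicle to follicle. With 1 probe set for each gene, the brightest, all 45 pairs had a positive Pearson's r, against 50.4% of all pairs of tested probe sets. The median r was 0.82, a value exceeded by 1.75% of all pairs, and 37 of 45 passed after adjustment over the pairs by r and 37 by Spearman's rho (permutation test with 100000 resamples, two-sided, adjusted p under 0.05). PGAM1 and LDHA Bt.3809.1.S1_at had r = 0.982 and rho = 0.951 (permutation test, p = 1e-05, the smallest these resamples can give, and adjusted p = 0.000225 for r), and r = 0.988 without the 2 arrays farthest from the PGAM1 median. PGK1 and the same LDHA probe set had r = 0.971 and rho = 0.997, with r = 0.958 without the 2 farthest. This held for that LDHA probe set alone. PGK1 had r = -0.832 with Bt.25555.1.S1_at (rho = -0.868, permutation test, p = 0.00449 and adjusted p = 0.00898 over 6 relations for r) and r = 0.036 with Bt.13881.1.S1_at (rho = 0.022, adjusted p = 0.940 for r), and of the 9 pairs that LDHA formed with the other genes 0 and 5 were positive with these probe sets, against 9 with Bt.3809.1.S1_at. ALDOA was the exception, with 1 of its 9 pairs passing, that with ENO1 (r = 0.684, rho = 0.669, permutation test, p = 0.0312 and adjusted p = 0.038 for r), and its other r ran from 0.294 to 0.586. Without the 2 farthest arrays its r was higher in 5 of the 9 pairs, as with GAPDH (0.586 over all 10, 0.745 without), and lower in 4, as with PFKP (0.557 over all 10, -0.08 without). The arrays share 1 tissue and may share their normalization, which no source states, and follicles of both cell shapes were pooled.

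The follicles did not spread evenly. Rounded replicates 1, 3 and 4 and columnar replicate 4 were set apart by the mean of cell cycle genes given below. That list was written after likeness to PGK1 over these arrays was seen, so the split is not independent of the glycolytic values. These 4 follicles lay below the other 6 small healthy follicles for PGK1, HK1, PGAM1, PKM and LDHA Bt.3809.1.S1_at. PKM was at 4.6 to 5.1 in these 4 and 5.6 to 5.9 in the other 6, while HK1 stepped only from 8.1 to 8.2. For SLC2A1, PFKP, ALDOA, GAPDH and ENO1 the 4 and the 6 met or overlapped. Within those 6 follicles 39 of the 45 pairs were positive, with a range of r from -0.54 to 0.97 and a median of 0.41, against 0.82 over all 10 follicles. PGK1 and LDHA Bt.3809.1.S1_at (r = 0.972) and PGAM1 and LDHA Bt.3809.1.S1_at (r = 0.971) stayed close within the 6 (n = 6, no test).

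The spread of the genes differed. LDHA Bt.3809.1.S1_at had an SD of 0.64 over the 10 small healthy follicles, larger than that of 96.8% of all tested probe sets, followed by PKM with 0.51 (93.6%), PGAM1 with 0.42 (88.1%) and PGK1 with 0.34 (80.0%). GAPDH had an SD of 0.15, with 22.7% of probe sets below it, and HK1 one of 0.17 (33.2%). The median SD was 0.21. The LDHA probe sets again differed. Bt.25555.1.S1_at also ran against Bt.3809.1.S1_at (r = -0.845, rho = -0.859, permutation test, p = 0.00299 and adjusted p = 0.00897 over 6 relations for r, r = -0.743 without the 2 farthest arrays), and Bt.13881.1.S1_at did not follow it (r = 0.153, rho = 0.034, adjusted p = 0.940 for r).

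**Figure D4:**
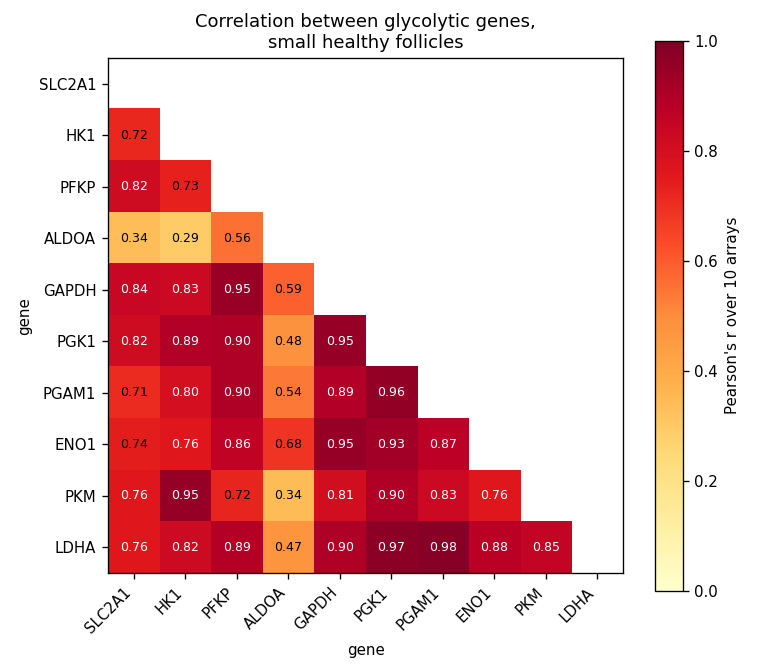
Pearson's r between the 10 genes over the 10 small healthy follicles (color scale from 0 to 1, value printed in each cell), with 1 probe set per gene (Bt.3809.1.S1_at for LDHA). The cells that involve PGK1, PGAM1 and LDHA reach 0.96 to 0.98, and the ALDOA row and column hold the lowest values, down to 0.29.

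PGK1 was taken as the reference for likeness over the 10 small healthy follicles. Of 15569 other tested probe sets, 770 (4.95%) had r over 0.9 to it and 516 had r under -0.9, given as a description without a test. The most alike named genes were ERCC6L (r = 0.993), MTHFD2, TUBG1 and CKS1B (0.991 to 0.992) and TPI1 (0.989), the glycolytic isomerase, with PCNA, the sliding clamp of DNA replication, at 0.987. The most opposite were YPEL3 (-0.99) and GABARAPL1 (-0.99).

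Since PCNA and CKS1B belong to the cell cycle, a list of 27 cell cycle and DNA replication genes was written after these values were seen, and 23 could be tested. Their mean log2 signal per follicle was 5.11 ± 0.29 in small atretic (4.75 to 5.43), 5.98 ± 0.71 in large (5.00 to 6.68) and 6.90 ± 0.76 in small healthy follicles (5.83 to 7.69, SD, n = 5, 4 and 10). All 23 fell in small atretic follicles, 21 of them at least 2-fold. Over all probe sets 15.1% were lower and 1.56% at least 2-fold lower. None passed in large follicles, although every difference was negative there. The median log2 difference of the list was -0.94 in large and -1.68 in small atretic follicles, each against small healthy ones. As the list was chosen from these arrays, its counts are no independent evidence. CCNB2, cyclin B2, differed by -2.38 ± 0.34 between small atretic and small healthy follicles (SE, limma adjusted p = 0.00135).

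The small healthy follicles left a gap in this mean between 6.36 and 7.13. The 4 follicles named above lay below it and 6 above it. Over all 10, r to the mean ran from 0.453 for ALDOA to 0.981 for PGK1. By r 9 of the 10 genes passed, and by rho 8 (permutation test, adjusted p under 0.05 over 80 relations). As these 10 lie on both sides of the gap and the list was chosen from these arrays, this is no independent evidence. Within the 6 above the gap, r to the cell cycle mean was 0.888 for LDHA Bt.3809.1.S1_at (rho = 0.812, exact permutation test, p = 0.0222 and adjusted p = 0.104 over 10 relations), 0.861 for PGK1 (rho = 0.812, exact permutation p = 0.0333, adjusted p = 0.104) and -0.06 for ALDOA (rho = -0.087, exact permutation, adjusted p = 0.881). None of the 10 relations within these 6 follicles passed. Immune, endothelial, smooth muscle, fibroblast, granulosa, theca steroidogenic and erythroid marker means gave no relation to the 10 genes that passed over the 10 small healthy follicles. The adjustment ran over 80 relations, which included the 10 with the cell cycle list. Among these marker lists alone the smallest adjusted p was 0.208 (permutation test), for the immune list.

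**Figure D5:**
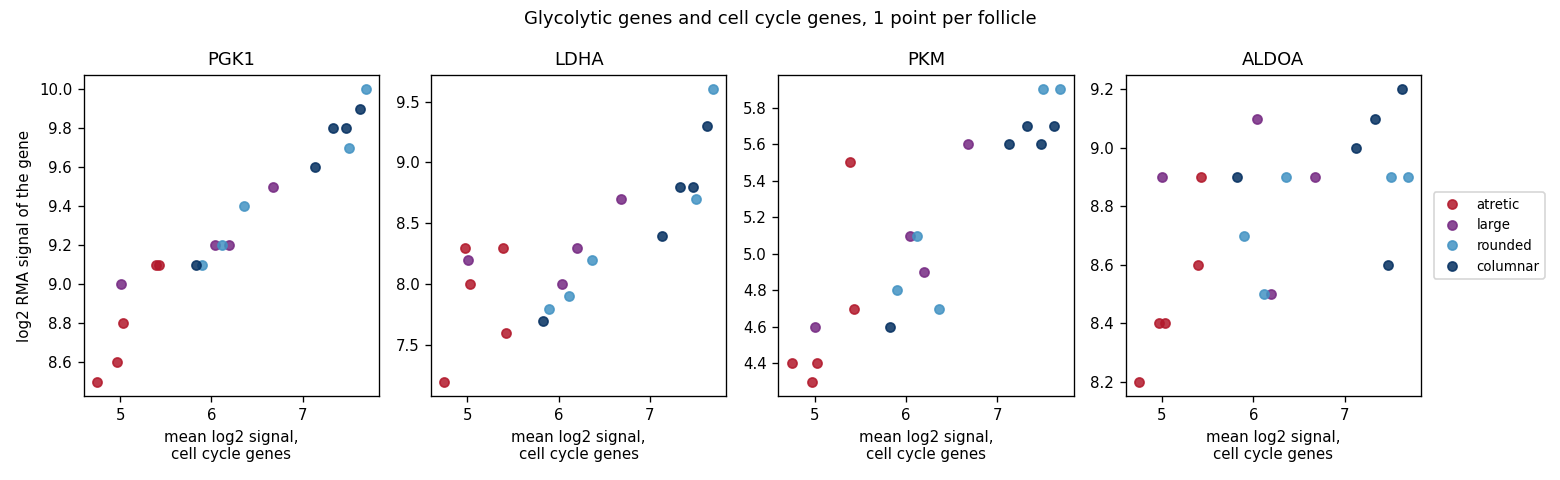
Log2 RMA signal of PGK1, LDHA (Bt.3809.1.S1_at), PKM and ALDOA (vertical axes) against the mean log2 signal of 23 cell cycle genes (horizontal axis), with 1 point per follicle colored by group. Atretic follicles lie at 4.75 to 5.43 on the horizontal axis, and the small healthy ones fall on both sides of a gap between 6.36 and 7.13.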

How the data were processed

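Theca interna RNA of 19 follicles was hybridised to the Affymetrix GeneChip Bovine Genome Array. The values deposited by the authors are log2 signals per probe set. The submitters' processing notes name RMA and Partek 6.5, and the study's methods add quantile normalization. No source says if that step took in all 19 arrays at once. Gene symbols came from the platform annotation, which gave 1 symbol for 13317 probe sets, several for 86 and none for 10724. All 14 probe sets of the 10 genes carried a gene ID with the same symbol in RefSeq.

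A probe set was tested when, in any follicle type of the comparison, 50% or more of its arrays had a log2 signal above 3. The 111 array controls were left out. Groups were compared in limma 3.58.1 (R 4.3.3) by linear models with empirical Bayes moderation. P-values were adjusted by Benjamini-Hochberg over all tested probe sets, and a call needed an adjusted p under 0.05, with the 2-fold limit stated where it was used. The scripts were tested on simulated data. For a gene with several probe sets the brightest stood for it in lists and correlations. All probe sets of the 10 genes are named, and from each list up to 4 passing genes of smallest p. The 10 genes and the lists were chosen with earlier results of these data known. The alternatives covered filters, scaling, moderation, the fold limit, each small healthy subgroup alone and leaving out each array. No sequences are shown.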

Additional observations from a re-analysis of the deposited data

Results flagged for a closer look

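In 48 groups of arrays tested over the 12 probe sets, 2 held an array far from the rest of its group, and chance gives about 1 in 20. HK1 read 7.9 in columnar replicate 4, against 8.2 to 8.3 in the other 4 columnar follicles. PKM read 4.6 in the same follicle, against 5.6 to 5.7 in the other 4. Leaving this follicle out, SLC2A1 passed in small atretic against small healthy follicles (-0.37, limma adjusted p = 0.0436).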

How the results depend on the processing

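No result for the glycolytic probe sets in large or rounded follicles crossed its threshold under any alternative run. In small atretic against small healthy follicles, the count of 8 passing probe sets became 0 against rounded follicles alone and ranged from 4 to 9 with 1 array left out, and the 2-fold count of 0 became 8 with no fold limit and 3 with a 1.5-fold limit. Against columnar follicles alone only GAPDH lost its call (limma adjusted p = 0.0590). SLC2A1 passed with arrays centred on their median (-0.40, adjusted p = 0.0389). Over all probe sets, 559 were called, 150 against rounded follicles alone, 4939 with no fold limit, 1783 with a 1.5-fold limit and 443 to 704 with 1 array left out. For large against small healthy follicles the count was 110, with 54 without moderation, 12 against rounded follicles alone, 59 without the 2 arrays of highest CYP19A1, 557 with no fold limit, 317 with a 1.5-fold limit and 54 to 161 with 1 array left out (leaving out columnar replicate 1 gave 70, columnar replicate 2 gave 72 and large replicate 4 gave 54). Why these counts moved was not tested.

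Only differences that had not passed changed sign. For large follicles ALDOA (-0.02) became 0.07 against rounded follicles alone and ran from -0.10 to 0.10 with 1 array left out. For small atretic follicles LDHA Bt.13881.1.S1_at (-0.02) became 0.06 against columnar follicles alone and ran from -0.075 to 0.075 with 1 array left out. For rounded follicles LDHA Bt.25555.1.S1_at ran from -0.025 to 0.15, PGAM1 from -0.32 to 0.005 and LDHA Bt.3809.1.S1_at from -0.45 to 0.015 with 1 array left out, the last becoming 0.02 as the mean of the 3 LDHA probe sets.

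The replicate numbers were not used as pairs in the main fits. Deviations of same-numbered arrays correlated at -0.35 to 0.57 (median 0.02), over 0.1 in 10 of 27 pairs. For different numbers the range was -0.669 to 0.515 (median -0.003), over 0.1 in 36 of 108 pairs. These values cannot settle whether follicles shared an animal. With a replicate block 6 of the 12 probe sets passed in small atretic follicles, GAPDH (adjusted p = 0.063) and PKM (adjusted p = 0.0682) did not, and for large follicles ALDOA became 0.025 and LDHA Bt.3809.1.S1_at 0.012. It changed no other call of a glycolytic probe set. The number of correlated pairs ranged from 31 to 40 of 45 with 1 array left out.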
